A study of Mus musculus with 9 samples.

Results

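Striatal projection neurons carry dopamine and adenosine signals through cyclic AMP, and 9 genes of that machinery were followed here in the newborn mouse dorsal telencephalon. They were the receptors Drd1, Drd2, Adora2a and Gpr6, the G protein regulator Rgs9, the enzymes Adcy5, Pde10a and Pde1b, and the phosphatase inhibitor Ppp1r1b. The genes were taken by symbol as a named set for their known role, with earlier results of these data known, and all 9 were found among the 41128 genes counted. RNA sequencing covered 9 libraries from B6:129SF2/J newborns at postnatal day 0, 3 each from animals labelled wild type (WT), heterozygous (Het) and knockout (KO) for Tcf4, the gene of an E protein, a broadly made bHLH (basic helix-loop-helix) partner factor. No treatment is labelled. Which part of Tcf4 was deleted, in which cells, and how many pups or litters went into a library are not given in the sources used here, and p-values accordingly reflect only how far these samples spread.

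The striatum, which lies in the ventral telencephalon, is built mainly of projection neurons of a pair of kinds. Neurons of the direct pathway carry the D1 dopamine receptor (Drd1), which raises cyclic AMP, and the peptides substance P and dynorphin. Neurons of the indirect pathway carry the D2 dopamine receptor (Drd2), which lowers cyclic AMP, together with an adenosine receptor (Adora2a), the orphan receptor Gpr6 and enkephalin. In both kinds, adenylyl cyclase 5 (Adcy5) makes cyclic AMP, phosphodiesterases degrade it, and protein kinase A acts on DARPP-32 (Ppp1r1b), which then inhibits protein phosphatase 1. Several of these genes are not exclusive to the striatum: Drd1 and Ppp1r1b, for example, are also made by deep-layer cortical neurons.

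Libraries held 22291940 to 23813314 counts in WT, 24008445 to 29398411 in Het and 26355671 to 29445788 in KO. Tcf4 itself lay at 584 to 728 CPM (read counts scaled to a common library size) in WT, 652 to 822 CPM in Het and 611 to 638 CPM in KO, and none of the 3 comparisons passed the test (adjusted p = 0.36, 0.33 and 0.13). Genotypes are therefore those of the labels, and every direction below rests on them. Of cortical excitatory neurons, 12 markers were read and all were detected. Their summed level was 3112 to 3607 CPM in WT, 3490 to 3915 CPM in Het and 3400 to 3489 CPM in KO. Single markers differed: 3 were called lower and 5 higher in KO than in WT, with log2 fold changes from -1.77 to 0.98. In Het 2 were lower and 5 higher. Over all genes tested, 26.3% were called lower and 26.5% higher in KO, and 23.4% and 22.5% in Het. Detection of these markers cannot show how much tissue from outside the dorsal telencephalon a library held.

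Because Drd2 and Gpr6 are the pair of indirect pathway receptors whose upstream sequence could be read, the 250 bases before their RefSeq starts are shown, beside those of Rgs9 and of Pde1b, which did not pass the test in KO. RefSeq held entries for 7 of the 9 genes (assembly GRCm38.p6). The E-box CANNTG, the general bHLH motif, and the cyclic AMP response element TGACGTCA were searched, each of which reads the same on both strands, and matches are in capitals. Each sequence is written 5′ to 3′ on the gene's strand.
Drd2, chr9:49340153-49340402, plus strand: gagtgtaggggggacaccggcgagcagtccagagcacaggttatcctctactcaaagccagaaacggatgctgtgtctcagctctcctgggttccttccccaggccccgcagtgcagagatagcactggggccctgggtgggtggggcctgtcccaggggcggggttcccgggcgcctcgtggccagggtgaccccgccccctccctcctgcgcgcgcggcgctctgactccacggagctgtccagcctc
Gpr6, chr10:41072291-41072540, minus strand: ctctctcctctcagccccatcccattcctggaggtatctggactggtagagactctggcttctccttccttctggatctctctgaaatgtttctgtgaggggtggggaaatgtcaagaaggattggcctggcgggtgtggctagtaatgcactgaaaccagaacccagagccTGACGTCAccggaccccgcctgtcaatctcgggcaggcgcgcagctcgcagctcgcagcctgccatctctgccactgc
Rgs9, chr11:109298182-109298431, minus strand: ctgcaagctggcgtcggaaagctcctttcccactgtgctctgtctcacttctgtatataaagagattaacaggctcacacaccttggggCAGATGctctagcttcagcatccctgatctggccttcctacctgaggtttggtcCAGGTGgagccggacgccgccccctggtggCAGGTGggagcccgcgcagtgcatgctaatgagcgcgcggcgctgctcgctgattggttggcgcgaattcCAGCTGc
Pde1b, chr15:103502784-103503033, plus strand: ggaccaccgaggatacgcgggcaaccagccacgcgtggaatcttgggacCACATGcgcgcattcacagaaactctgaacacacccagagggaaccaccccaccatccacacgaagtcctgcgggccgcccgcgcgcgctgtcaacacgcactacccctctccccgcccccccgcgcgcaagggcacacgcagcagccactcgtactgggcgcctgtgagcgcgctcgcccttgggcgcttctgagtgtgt
The windows of Drd2 and Gpr6 held no E-box, the Rgs9 window held 4 and the Pde1b window shown held 1. Pde1b has 2 further windows at later starts, with 2 E-boxes each. Gpr6 alone among these held TGACGTCA. Of 32851 windows of this length in the table, 66.2% held at least 1 E-box and 1.55% held TGACGTCA. Among the 11 windows of the 7 genes, 7 held an E-box. These matches describe letters in the windows and were not tested as binding sites.

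In libraries labelled Het or KO, the indirect pathway receptors Drd2, Adora2a and Gpr6 stood at 6.47% to 19.2% of their WT means and Ppp1r1b at 22.8% to 37.6%. Rgs9, Adcy5 and Pde10a fell to between 48.4% and 74.5%, and Drd1 and Pde1b did not pass the test in KO. Of the 9 genes, 7 were lower and none was higher in KO than in WT (edgeR's quasi-likelihood test, adjusted p under 0.05), where 26.3% of the 15271 genes tested were called lower, 26.5% higher and 52.8% either way. In Het all 9 were lower than in WT, against 23.4% of all genes called lower, 22.5% higher and 45.9% either way. Between KO and Het, 1 was lower (Ppp1r1b) and 1 higher (Pde1b), with 8.44% of all genes called lower, 8.3% higher and 16.7% either way. The median log2 fold change of the 9 genes was -1.05 for KO versus WT and -0.71 for Het versus WT, beside 0.01 for all tested genes in each comparison. All 9 passed the filter on low counts. The 3 comparisons share libraries, so Het and KO values against WT are not independent of each other. In such bulk tissue, fewer cells of a type, less RNA per cell and a smaller share of striatum in the dissected piece cannot be told apart.

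**Figure D1:**
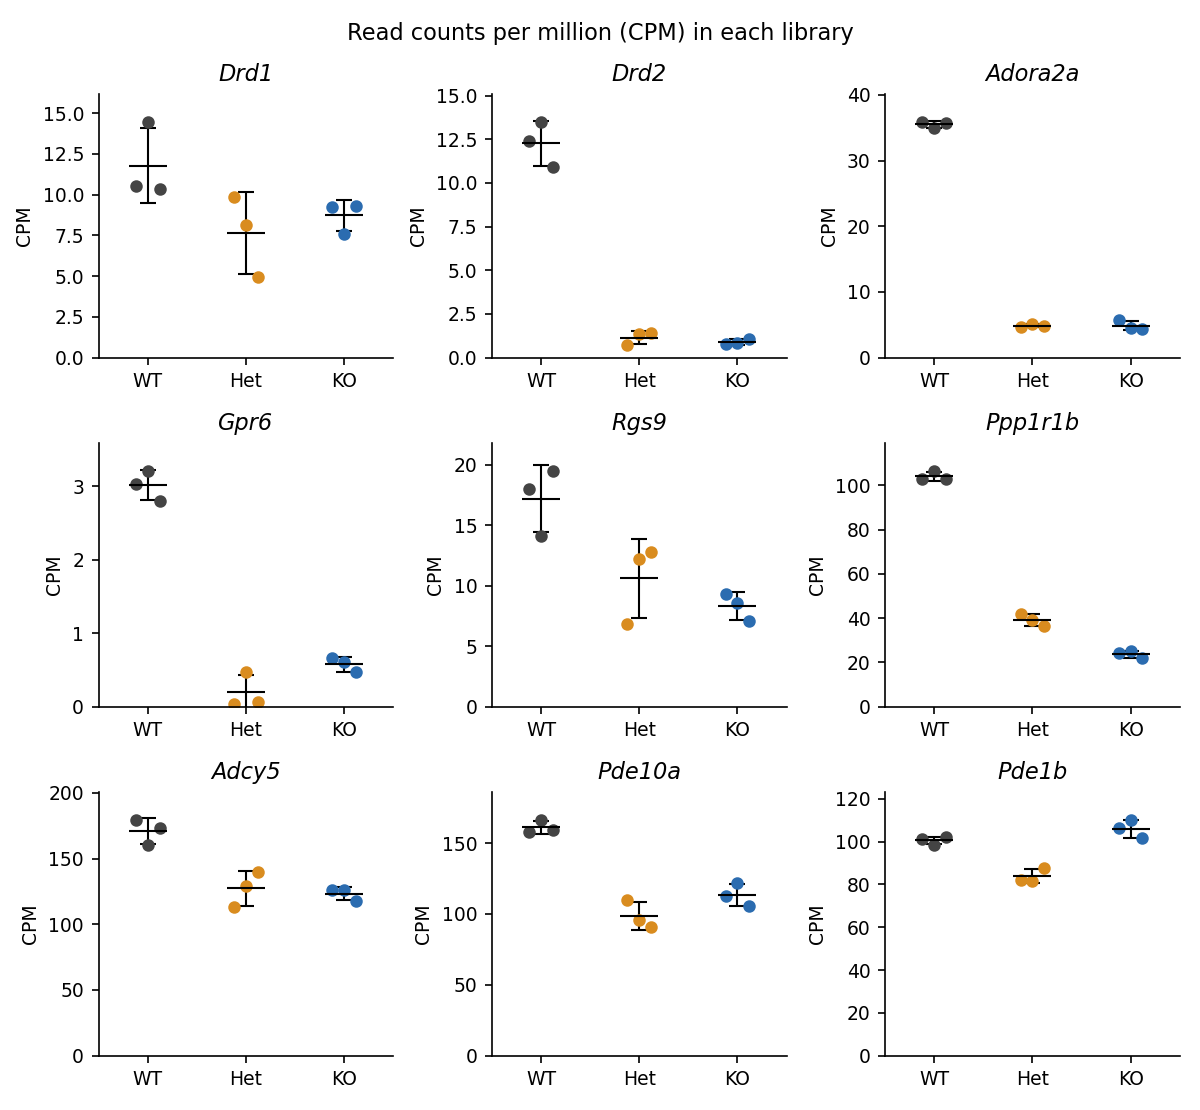
CPM of each of the 9 genes (vertical axis from 0, 1 panel a gene) in the 3 WT-labelled, 3 Het-labelled and 3 KO-labelled libraries, with each point a library and the horizontal line the mean. Drd2, Adora2a, Gpr6 and Ppp1r1b are separated widely from WT in Het and KO, while Pde1b in KO, at 102 to 110 CPM, overlaps WT at 98.6 to 102 CPM.

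Drd2, the D2 dopamine receptor (mm10, chromosome 9, 49340627 to 49408177, plus strand), was counted at 12.4, 13.5 and 10.9 CPM in WT, at 0.697, 1.35 and 1.38 CPM in Het and at 0.767, 0.838 and 1.06 CPM in KO. Every WT library was far above every other library, and the Het and KO values overlapped. The level in KO was 13.7-fold lower than in WT (log2 fold change -3.77, SE 0.21, adjusted p = 3.22e-10, 3 libraries each), and in Het 10.5-fold lower (-3.40, SE 0.20, adjusted p = 1.44e-09). For KO versus Het the value was -0.38 (SE 0.25, adjusted p = 0.34). The counts behind these levels were 254 to 303 reads per WT library and 17 to 40 per other library.

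Adora2a, the adenosine receptor that couples to the olfactory G protein and raises cyclic AMP in the same neurons (chromosome 10, 75316877 to 75334784, plus strand), was counted at 35.9, 34.9 and 35.7 CPM in WT, at 4.63, 5.14 and 4.88 CPM in Het and at 5.75, 4.57 and 4.35 CPM in KO. Het and KO overlapped each other and neither came near WT. KO fell to 13.8% of the WT mean (log2 fold change -2.86, SE 0.11, adjusted p = 1.79e-12, 3 libraries each) and Het also to 13.8% (-2.86, SE 0.11, adjusted p = 2.87e-12). The KO versus Het difference was 0.00 with SE 0.12.

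Gpr6, a constitutively active orphan receptor that raises cyclic AMP in indirect pathway neurons (chromosome 10, 41069977 to 41072285, minus strand), had few reads. They numbered 67, 72 and 65 in WT, 1, 14 and 2 in Het and 19, 16 and 14 in KO, which correspond to 3.03, 3.21 and 2.80 CPM, 0.0410, 0.474 and 0.0692 CPM, and 0.662, 0.609 and 0.465 CPM. All WT libraries were above all others, and Het replicate 2 stood apart from the other two Het libraries and within the KO range. KO was 5.18-fold lower than WT (log2 fold change -2.37, SE 0.36, adjusted p = 5.41e-05, 3 libraries each) and Het 14.5-fold lower (-3.85, SE 0.43, adjusted p = 3.98e-06). KO stood above Het by 1.48 (SE 0.52, adjusted p = 0.067), which missed the threshold. Het replicate 2 changed the size of both Het values, though Het versus WT passed with or without it. When this library was left out, Het versus WT was -5.61 (adjusted p = 1.06e-07) and KO versus Het was 3.24 (adjusted p = 8.57e-04). The second of these also passed with no filter on low counts (adjusted p = 0.0068), with DESeq2 (0.026) and with limma on log2(FPKM + 0.1) (0.033).

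Drd1, the D1 dopamine receptor of direct pathway neurons (chromosome 13, 54051183 to 54055705, minus strand), was counted at 10.5, 14.5 and 10.4 CPM in WT, at 9.88, 8.12 and 4.95 CPM in Het and at 9.27, 7.62 and 9.30 CPM in KO. No Het or KO library reached the lowest WT library, but the highest Het library lay close to it. The mean in KO was 74.0% of WT, a log2 fold change of -0.43 that did not pass the test (SE 0.22, adjusted p = 0.13, 3 libraries each). Het fell to 64.9% of WT (-0.63, SE 0.23, adjusted p = 0.043). This call was lost on leaving out any library other than Het replicate 1, with adjusted p from 0.052 to 0.13, and in a fit of Het and WT alone (adjusted p = 0.078). The Het value was -0.39 without Het replicate 3. The KO difference, in contrast, passed without Het replicate 3 (adjusted p = 0.022) and in a fit of KO and WT alone (0.020).

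Drd1 was also set against the indirect pathway receptors within each library, as a ratio in which the direct pathway is represented by that gene only. Most other direct pathway markers fell. Of 7 such markers, Drd1 among them, 5 were lower and 1 higher in KO (median log2 fold change -1.64). In Het 6 were lower and 1 higher (median -2.19). Shares over all genes were 26.3% lower and 26.5% higher in KO, and 23.4% and 22.5% in Het. The ratio therefore describes Drd1 and not the direct pathway as a whole. The log2 ratio of Drd1 to the mean of Drd2, Adora2a and Gpr6, each on log2 CPM, was -0.07, 0.33 and 0.00 in WT, 3.72, 2.36 and 2.30 in Het and 2.61, 2.43 and 2.75 in KO. No Het or KO library came within the WT range, and Het replicate 1, with a single Gpr6 read, was the highest. The ratio was higher than in WT by 2.51 in KO and by 2.71 in Het (two-sided exact permutation test over libraries, p = 0.1 for each, the smallest that 3 against 3 allows, 0.15 after adjustment over the 3 pairs). KO and Het differed by -0.20 (exact permutation p = 1). No adjusted value could pass in this design. Without Het replicate 1 that last difference became 0.26.

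**Figure D2:**
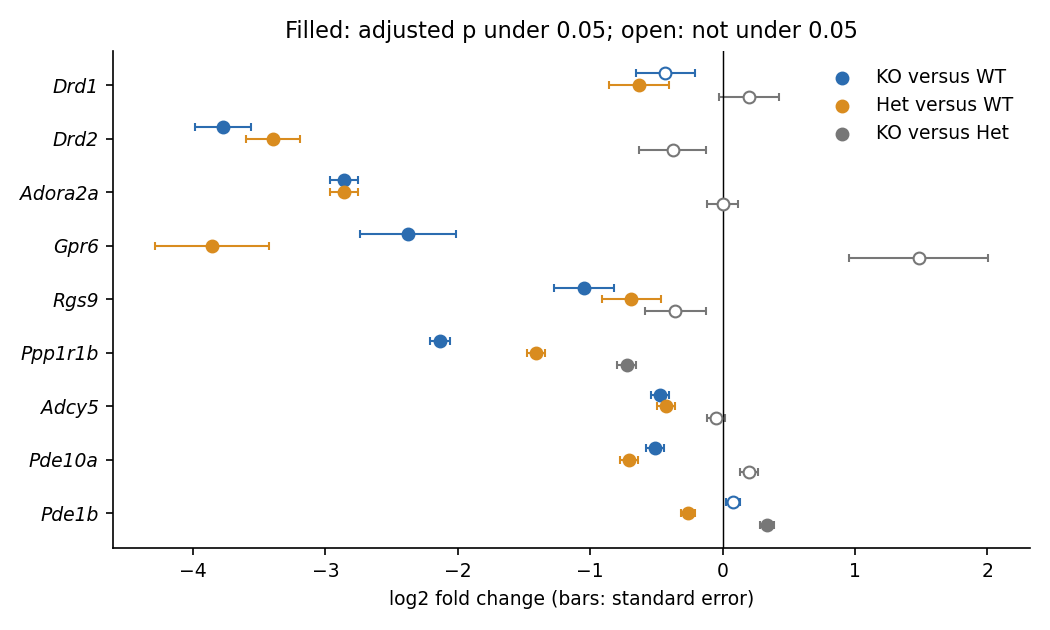
Log2 fold change (horizontal axis, bars show the standard error) of each of the 9 genes for KO versus WT, Het versus WT and KO versus Het, with filled points for an adjusted p under 0.05. Drd2, Adora2a and Gpr6 lie between -3.85 and -2.37 in both comparisons with WT, and Drd1 in KO and Pde1b in KO are open points.

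Rgs9 encodes a regulator of G protein signalling whose brain form shortens D2 receptor responses in the striatum (chromosome 11, 109225355 to 109298129, minus strand). It was counted at 17.97, 14.1 and 19.5 CPM in WT, at 6.85, 12.2 and 12.8 CPM in Het and at 9.31, 8.61 and 7.07 CPM in KO. All WT libraries were above all Het and KO libraries, and Het replicate 1 was the lowest of the 9. KO fell to 48.4% of WT (log2 fold change -1.05, SE 0.23, adjusted p = 0.0036, 3 libraries each) and Het to 61.7% (-0.69, SE 0.22, adjusted p = 0.031). The Het call was lost without WT replicate 1 (adjusted p = 0.077), WT replicate 3 (0.095) or KO replicate 2 (0.057), with no filter on low counts (0.068), and in a fit of Het and WT alone (0.063). Het replicate 1 sets its size, since the value without it was -0.45 (adjusted p = 0.017). KO versus Het was -0.36 (SE 0.23, adjusted p = 0.35), and -0.60 (adjusted p = 0.0088) without Het replicate 1.

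Ppp1r1b, or DARPP-32, which turns protein kinase A activity into inhibition of protein phosphatase 1 (chromosome 11, 98348404 to 98357796, plus strand), was the one gene of the 9 that stepped down between all 3 genotypes. It was counted at 103, 107 and 103 CPM in WT, at 42.0, 39.1 and 36.4 CPM in Het and at 24.2, 25.02 and 21.9 CPM in KO. The 3 groups did not overlap. Het fell to 37.6% of WT (log2 fold change -1.41, SE 0.07, adjusted p = 1.15e-10, 3 libraries each), KO to 22.8% of WT (-2.13, SE 0.07, adjusted p = 4.99e-13) and KO to 60.5% of Het (-0.72, SE 0.07, adjusted p = 2.13e-06). When a fold of at least 1.5 was required, the KO versus Het call was lost. The gene overlaps 1700003D09Rik on the opposite strand and 11.6% of its 31-base words also occur in other genes, so part of its reads could be shared.

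Adcy5, the main adenylyl cyclase of the striatum (chromosome 16, 35154877 to 35305738, plus strand), was counted at 180, 161 and 173 CPM in WT, at 113, 129 and 140 CPM in Het and at 126, 126 and 118 CPM in KO. Het and KO both lay below the lowest WT library and overlapped each other. KO fell to 72.1% of WT (log2 fold change -0.47, SE 0.07, adjusted p = 2.78e-05, 3 libraries each) and Het to 74.5% (-0.42, SE 0.07, adjusted p = 1.17e-04), while KO versus Het was -0.05 (SE 0.07, adjusted p = 0.70).

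The phosphodiesterases, which degrade cyclic AMP and cyclic GMP, behaved unlike each other. Pde10a, the isoform most enriched in striatal projection neurons (chromosome 17, 8525372 to 8986648, plus strand), was counted at 158, 166 and 159 CPM in WT, at 110, 95.9 and 90.7 CPM in Het and at 113, 122 and 106 CPM in KO. WT was above all other libraries, and Het overlapped KO. KO fell to 70.3% of WT (log2 fold change -0.51, SE 0.07, adjusted p = 9.09e-06, 3 libraries each) and Het to 61.2% (-0.71, SE 0.07, adjusted p = 4.4e-07). KO versus Het, at 0.20 (SE 0.07), narrowly missed the threshold (adjusted p = 0.051), and passed without Het replicate 1 (0.0063), without KO replicate 3 (0.036) and with no filter on low counts (0.013).

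Pde1b, the calcium- and calmodulin-stimulated isoform (chromosome 15, 103503034 to 103530052, plus strand), was counted at 101, 98.6 and 102 CPM in WT, at 82.3, 81.6 and 87.8 CPM in Het and at 106, 110 and 102 CPM in KO. Het lay below both other groups and KO overlapped WT. Het fell to 83.4% of WT (log2 fold change -0.26, SE 0.05, adjusted p = 6.18e-04, 3 libraries each). KO versus WT was 0.08 (SE 0.05, adjusted p = 0.23), and KO was higher than Het by 0.34 (SE 0.05, adjusted p = 2.4e-04). Pde1b was thus the only one of the 9 to be called higher in KO than in Het in the edgeR fit. When a fold of at least 1.5 was required, the calls against WT that remained, in KO and in Het alike, were those of Drd2, Adora2a, Gpr6 and Ppp1r1b.

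Compared per length as FPKM (read counts scaled for gene length and library size), the order of the genes differed between genotypes. In WT, Ppp1r1b led at 85.6 ± 1.16 FPKM (SD, n = 3), followed by Pde10a at 43.0 ± 0.82, Pde1b at 33.3 ± 0.86, Adcy5 at 23.9 ± 1.63 and Adora2a at 13.7 ± 0.36 FPKM. Below them were Rgs9 at 7.99 ± 1.33 and Drd2 at 7.76 ± 0.80 FPKM, whose libraries overlapped, then Drd1 at 3.27 ± 0.62 and Gpr6 at 1.66 ± 0.11 FPKM. In Het, Ppp1r1b still led at 33.4 ± 2.32 FPKM, ahead of Pde1b at 28.8 ± 1.38 and Pde10a at 27.2 ± 2.69 FPKM, which overlapped. In KO, Ppp1r1b at 20.0 ± 1.077 FPKM stood behind Pde1b at 36.0 ± 1.03 and Pde10a at 30.97 ± 1.79 FPKM.

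Among the receptors, Adora2a and Drd2 were above Drd1 in WT without overlap. Drd1 overlapped Adora2a in Het, at 2.20 ± 0.71 against 1.95 ± 0.09 FPKM, and in KO, at 2.49 ± 0.29 against 1.94 ± 0.28 FPKM. Drd2 was below both there, at 0.749 ± 0.25 FPKM in Het and 0.578 ± 0.11 FPKM in KO. Gpr6 was the lowest of the 9 in every genotype, at 0.111 ± 0.14 FPKM in Het and 0.327 ± 0.05 FPKM in KO.

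**Figure D3:**
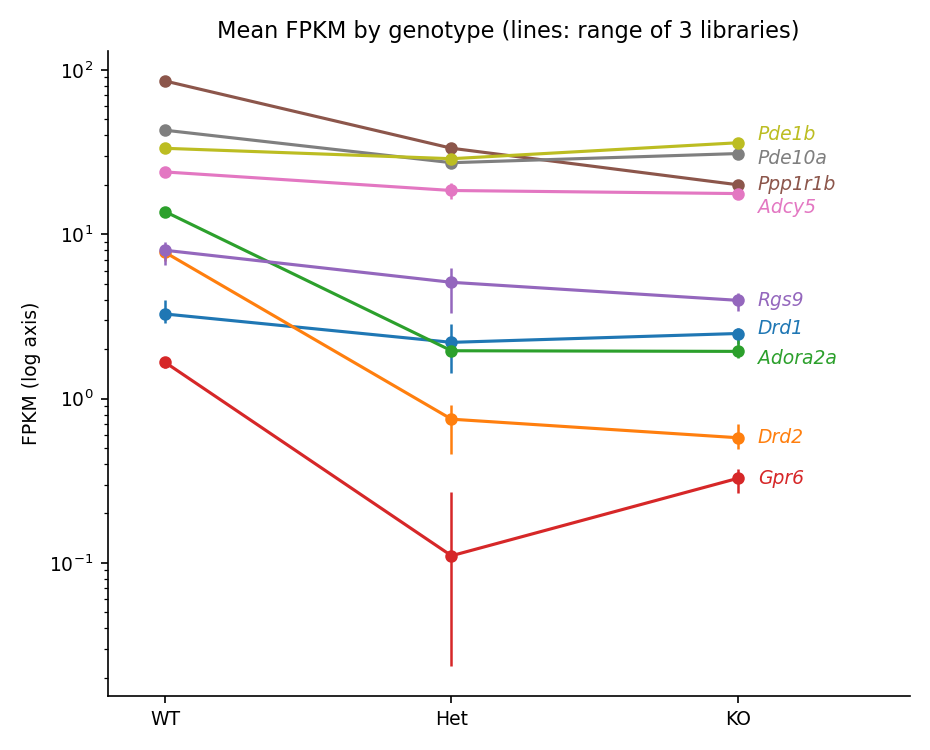
Mean FPKM (vertical log axis) of each of the 9 genes in WT-labelled, Het-labelled and KO-labelled libraries, with vertical lines for the range of 3 libraries. Ppp1r1b leads in WT at 85.6 FPKM and is behind Pde1b and Pde10a in KO at 20.0 FPKM, and Drd2 crosses from above Drd1 in WT to below it in Het and KO.

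Across the 9 libraries, Pearson correlations of log2 CPM described which of the genes moved together; the points share genotype and library, so these are descriptions. Drd2 and Adora2a correlated at 0.98, Drd2 and Ppp1r1b at 0.94 and Rgs9 and Adcy5 at 0.95. Drd1 correlated at 0.57 with Drd2, and its values ran from 0.17 with Rgs9 to 0.775 with Pde10a. Those of Pde1b ran from -0.03 with Ppp1r1b to 0.587 with Gpr6. Of 11925 other genes with a mean log2 CPM of at least 1, 547 reached 0.95 with Adora2a. Among the most alike were Rims3 (0.9975), Pcsk1n (0.9973), Vcp-rs (0.9968) and Rpl3-ps1 (0.9953). Vcp-rs and Rpl3-ps1 share 89.5% and 97.4% of their words with other genes, so their counts are uncertain. Both were far higher in every WT library than in any Het or KO library. Mean levels of Vcp-rs were 141 CPM in WT, 1.22 CPM in Het and 1.27 CPM in KO. Those of Rpl3-ps1 were 138 CPM in WT, 6.49 CPM in Het and 5.575 CPM in KO. The cause of this difference between WT and both other genotypes was not tested. For Drd1 only 2 genes reached 0.95, Eif1ax (0.971) and Desi2 (0.958), followed by Ctso (0.930), Azin1 (0.930) and Vdac3 (0.923).

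Other markers of the same neurons were read beside the receptors. Over all tested genes, 26.3% were called lower and 26.5% higher in KO, and 23.4% and 22.5% in Het. Of the 7 direct pathway markers, which include Drd1, 5 were lower and 1 was higher in KO, and 6 were lower and 1 was higher in Het. Their summed level was 89.7 to 98.04 CPM in WT, 19.7 to 23.8 CPM in Het and 26.4 to 29.8 CPM in KO. Isl1, a transcription factor of direct pathway neurons, was at 14.2, 11.3 and 11.5 CPM in WT and at no more than 0.133 CPM in any other library. The substance P gene Tac1 fell, with log2 fold changes of -2.98 in KO (SE 0.34, adjusted p = 9.73e-05) and -3.77 in Het (SE 0.37, adjusted p = 5.07e-05). Ebf1, another transcription factor of these neurons, fell likewise, at -3.40 (SE 0.14, adjusted p = 1.13e-11) and -3.79 (SE 0.15, adjusted p = 7.86e-12). The dynorphin gene Pdyn (-1.26 in KO and -2.19 in Het) and the muscarinic receptor gene Chrm4 (-1.64 and -1.89) fell as well. Eya1 was the marker that rose, by 0.58 in KO and 0.38 in Het. Drd1 was the marker of this list with no call in KO.

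Against 26.3% of all tested genes called lower in KO and 23.4% in Het, all 6 indirect pathway markers were lower in both comparisons with WT. Drd2, Adora2a and Gpr6 are 3 of these markers. Their summed level was 136 to 144 CPM in WT, 23.2 to 25.2 CPM in Het and 21.4 to 25.002 CPM in KO. The enkephalin gene Penk fell, with log2 fold changes of -3.42 in KO (SE 0.18, adjusted p = 1.71e-10) and -2.89 in Het (SE 0.17, adjusted p = 1.48e-09). It overlaps A830012C17Rik on the opposite strand and shares 10.9% of its words. The transcription factor gene Six3 (-4.91 and -4.83) and Sp9 (-1.81 and -1.80) fell in both too.

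**Figure D4:**
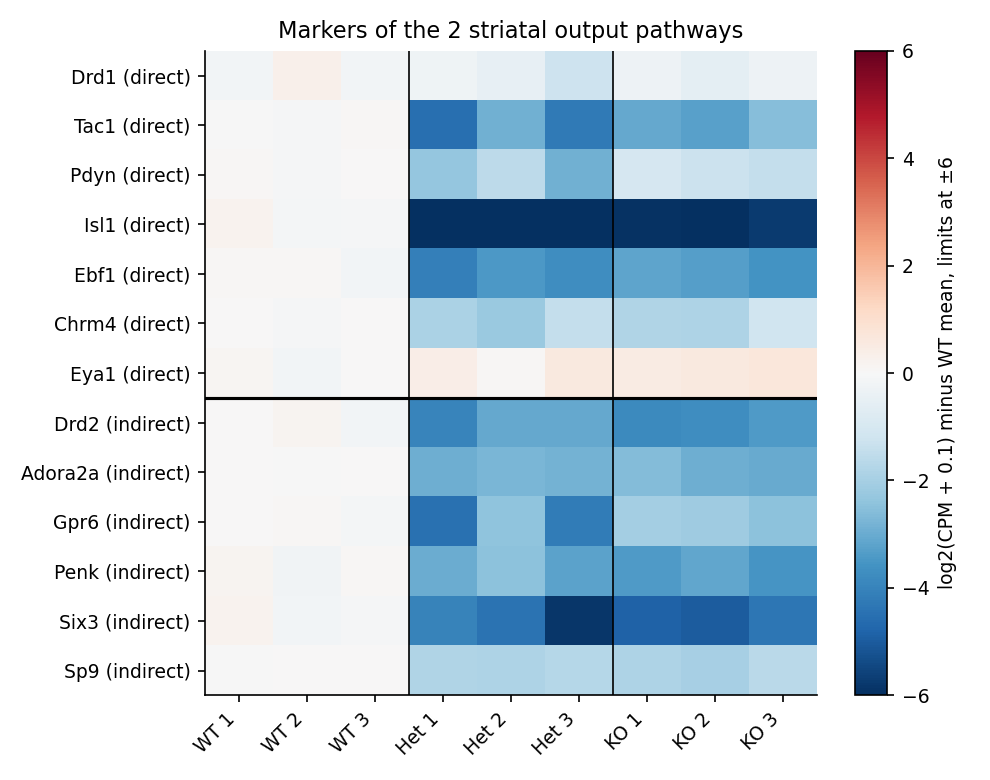
Log2(CPM + 0.1) minus the WT mean (colour, limits at ±6) for markers of the direct and indirect pathways (rows) in each of the 9 libraries (columns). Both blocks are blue in Het and KO apart from Drd1, which is pale blue, and Eya1, which is near white or pale red.

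A wider list of 21 striatal projection neuron genes outside cyclic nucleotide signalling had 19 lower and 2 higher in KO (median log2 fold change -1.95). It had 18 lower and 1 higher in Het (median -1.80), beside a median of 0.01 for all genes. The shares over all tested genes were 26.3% lower and 26.5% higher in KO, and 23.4% and 22.5% in Het. Earlier results of these data were known when the list was made, so its direction is not independent evidence. The list also repeats markers counted above, such as Tac1, Ebf1, Eya1 and Penk, so it is not a separate set of genes. The higher gene in Het was Eya1, a call that leaving out WT replicate 2 or 3, Het replicate 1 or 3, or KO replicate 1 or 2 removed. Among the most changed in KO, the retinoid X receptor gene Rxrg was at -4.35, with -4.29 in Het, and Ikzf1 at -3.77 and -3.73. The retinoic acid receptor gene Rarb fell by a similar amount (-3.60 and -3.84), but it overlaps Top2b and 35.7% of its words occur elsewhere.

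Other genes of the pathway were read from 6 lists made by role. Over these lists, which held 106 genes, of which 101 were tested, 54 were lower and 13 higher in KO (median log2 fold change -0.26), and 64 were lower and 12 higher in Het (median -0.30). KO versus Het gave 12 lower and 19 higher. Every count below is to be read against all tested genes, of which 26.3% were called lower and 26.5% higher in KO, 23.4% and 22.5% in Het, and 8.44% and 8.3% in KO versus Het. In the paragraphs that follow, values in brackets are log2 fold changes against WT, in KO and then in Het. Drd3, Drd5, Adcy10, Pde4c and Ppp1r1c had too few reads to be tested.

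Receptors of the same signalling had 9 lower and 3 higher of 17 in KO (median -1.02), and 11 lower and 3 higher in Het (median -1.33). Chrm4, counted above as a direct pathway marker, is among the lower genes in both. The metabotropic glutamate receptor gene Grm4 (-1.50 and -1.48) and the muscarinic receptor gene Chrm1 (-1.16 and -0.76) fell in both. The 3 higher genes were Drd4, Gpr12 and Cnr1, of which 1 was left in KO without WT replicate 1, and 1 in Het without WT replicate 1 or 3 or Het replicate 1.

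Relatives of the 4 receptor genes were read whatever their values. The A1 adenosine receptor gene Adora1, whose product opposes the Adora2a receptor, fell in KO (-0.95, SE 0.06, adjusted p = 1.89e-09) and in Het (-0.57, SE 0.06, adjusted p = 1.21e-06). Adora2b, at 2.21 to 3.47 CPM in WT, fell too (-3.23 and -2.74). Adora1 overlaps Mybph on the opposite strand and shares 18.6% of its words with other genes. Adora3 overlaps Tmigd3 on the same strand and shares 23.9%, so part of the reads of both could be shared. Adora3, under 0.68 CPM in every library, fell in Het (-1.80, adjusted p = 0.027), a call lost without WT replicate 1 or 3 or any Het library, and its KO value was -1.34 (adjusted p = 0.066), which passed without WT replicate 2 or KO replicate 2. Drd4 rose by 0.66 in KO (adjusted p = 0.024) and 0.60 in Het (adjusted p = 0.045) from under 1 CPM in WT; the KO call was lost without WT replicate 1 or 2 or KO replicate 1, and the Het call without any library other than Het replicate 2 or KO replicate 3. DESeq2 and no filter on low counts also ended the Drd4 calls, in KO (0.087 and 0.053) and in Het (0.13 and 0.094), as did a fit of Het and WT alone (0.065). Among the kin of Gpr6, Gpr12 rose (0.24 and 0.21), calls lost in KO without WT replicate 1 or KO replicate 2 and in Het without WT replicate 1 or 3 or Het replicate 1 or 2, or in a fit of Het and WT alone (0.055). Gpr3 was at -0.43 and -0.47 with adjusted p = 0.20 and 0.17, and the Het value passed without WT replicate 1.

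Of 14 G protein subunits, 10 were lower in KO and 12 in Het, none was higher, and the medians were -0.20 and -0.36. The KO count was 6 without WT replicate 3. Gnal, the olfactory alpha subunit through which striatal Drd1 and Adora2a receptors stimulate adenylyl cyclase, lay at 369 to 380 CPM in WT, 173 to 192 CPM in Het and 176 to 178 CPM in KO. It fell in KO (-1.08, SE 0.05, adjusted p = 6.44e-11) and in Het (-1.02, SE 0.05, adjusted p = 2.06e-10), and its locus overlaps other genes on both strands. Gng7, the gamma subunit of the same complex (-1.31 and -1.51), Gnaz (-0.51 and -0.59) and Gnao1 (-0.38 and -0.37) also fell.

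Of 16 other RGS proteins and anchors, 8 were lower and 3 higher in KO, and 10 were lower and 2 higher in Het. Rgs9bp, which encodes the membrane anchor of the retinal Rgs9 form, differed between the genotypes: it lay at 2.17 to 4.26 CPM in WT, 3.79 to 4.08 CPM in Het and 0.724 to 1.32 CPM in KO. The log2 fold change was -1.82 for KO versus WT (SE 0.26, adjusted p = 2.29e-05) and -2.01 for KO versus Het (adjusted p = 4.4e-05), with 0.19 for Het versus WT (adjusted p = 0.52). Rgs17 (-1.002 and -1.26), Rgs10 (-0.84 and -0.75) and Rgs7, the close relative of Rgs9 (-0.50 and -0.56), fell. Rgs11, of the same subfamily, fell (-0.82 and -1.001), calls lost without WT replicate 2, where the KO value was -0.54, and in KO also without KO replicate 1 or 2 and with DESeq2 (0.055). Rgs5, which is also a pericyte gene, rose (1.32 and 1.199).

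Adenylyl and guanylyl cyclases other than Adcy5 had 5 lower and 2 higher of 11 in KO and 6 lower and 1 higher in Het. The 5 became 3 without WT replicate 2 or 3 or KO replicate 1, the 2 became 1 without WT replicate 1 or KO replicate 1 or 2, and the 1 became 2 without WT replicate 2 or Het replicate 2. Adcy2 fell in KO (-1.50, SE 0.08, adjusted p = 2.72e-10) and in Het (-0.98, SE 0.08, adjusted p = 6.32e-08), and KO was below Het (-0.52, adjusted p = 3.22e-04). The calcium-stimulated Adcy1, at 792 to 886 CPM in WT, fell in both (-0.92 and -0.78). Adcy6, the closest relative of Adcy5, rose in KO by 0.34 (SE 0.08, adjusted p = 0.0025), with 0.13 in Het (adjusted p = 0.20, which passed without Het replicate 2). In Het, Gucy1a1 fell (-0.53, SE 0.12, adjusted p = 0.0046) and so did Adcy7 (-0.68, SE 0.14, adjusted p = 8.74e-04), calls that held on leaving out any library. In KO, Gucy1a1 was at -0.38, a call lost without KO replicate 1. Adcy7 in KO was at -0.34 (adjusted p = 0.045), a call lost without any library other than Het replicate 1 or 3 or KO replicate 3, with upper-quartile factors (0.060), with no filter (0.12), with DESeq2 (0.074) and with limma on both pseudocounts (0.12 and 0.18).

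Phosphodiesterases other than Pde10a and Pde1b had 5 lower and 5 higher of 15 in KO (median 0.10), near the shares of 26.3% and 26.5% over all genes, and 8 lower and 5 higher in Het (median -0.25). Pde7b, a cyclic AMP phosphodiesterase of the striatum, fell in KO (-1.49, SE 0.16, adjusted p = 1.06e-06) and in Het (-1.71, SE 0.17, adjusted p = 4.5e-07). In the calmodulin-stimulated family of Pde1b, Pde1c fell (-1.13 and -0.58), and Pde1a, at -0.06 in both, passed neither test (adjusted p = 0.62 and 0.65). Pde8a (0.97 and 0.98) and Pde3b (0.68 and 0.39) rose.

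Protein kinase A subunits, phosphatases and partners of DARPP-32 had 17 of 28 lower and none higher in KO (median -0.24), and 17 lower and 1 higher in Het (median -0.27). The higher gene, Creb1, was chosen after its value was seen; the count was 0 without WT replicate 1 or Het replicate 1 and 2 without Het replicate 2. Akap5, which anchors protein kinase A at synapses, fell in both (-1.06 and -0.87). Arpp21, another cyclic AMP-regulated phosphoprotein of the striatum, fell (-1.05 and -0.65), as did Rasgrp2 (-0.99 and -0.76) and Rap1gap (-0.71 and -0.77), regulators of the small GTPase Rap1. Ppp1r1a, the inhibitor most like Ppp1r1b, fell in KO (-0.52, SE 0.06, adjusted p = 3.35e-06) and in Het (-0.48, SE 0.06, adjusted p = 1.28e-05), with 84.6 to 99.1 CPM in WT, 66.7 to 68.7 CPM in Het and 63.3 to 67.9 CPM in KO.

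**Figure D5:**
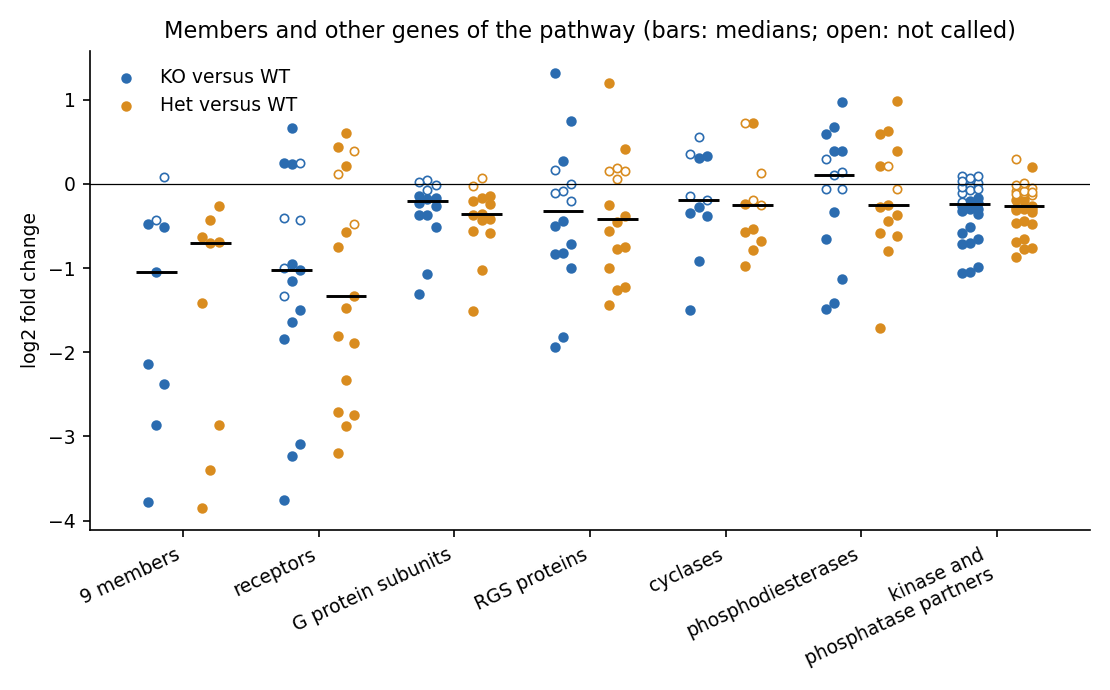
Log2 fold change (vertical axis) of the 9 genes and of the tested genes in 6 lists of the pathway (horizontal axis) for KO versus WT and Het versus WT, with open points for genes not called and bars for medians. The medians of the 9 genes, -1.05 and -0.71, lie beside list medians from -1.33 to 0.10.

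Markers of other cells that the dissection could hold were read beside these values, against shares of 26.3% lower and 26.5% higher over all genes in KO. Cortical layer 6 and subplate markers, some of whose cells also make Drd1 and Ppp1r1b, summed to 398 to 427 CPM in WT, 333 to 359 CPM in Het and 258 to 274 CPM in KO, with 4 of 8 lower and 3 higher in KO. Within them Syt6 fell (-2.10 and -0.80) and was lower in KO than in Het (-1.30, adjusted p = 6.9e-08), while Tle4 rose (0.28 and 0.34). Cholinergic neuron markers summed to 6.28 to 16.3 CPM in WT, 0.943 to 1.003 CPM in Het and 0.797 to 0.838 CPM in KO, with all 3 that could be tested of 5 lower in both. Of 13 cortical interneuron markers 10 were lower and 1 was higher in KO, and their sum went from 978 to 1030 CPM in WT to 815 to 890 CPM in Het and 711 to 782 CPM in KO.

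Ventral progenitor markers summed to 251 to 267 CPM in WT, 224 to 235 CPM in Het and 245 to 266 CPM in KO, with 3 of 7 lower and 1 higher in KO. Glial sums were lower: astrocyte and radial glia markers at 1525 to 1560 CPM in WT, 979 to 1045 CPM in Het and 920 to 1035 CPM in KO, and microglia markers at 79.2 to 89.7 CPM, 37.3 to 40.2 CPM and 41.1 to 42.1 CPM. Oligodendrocyte lineage markers summed to 382 to 418 CPM in WT, 203 to 206 CPM in Het and 203 to 235 CPM in KO. The endothelial and pericyte sum was higher, at 163 to 170 CPM in WT, 228 to 251 CPM in Het and 240 to 258 CPM in KO. Of its 5 markers, which include Rgs5, 3 were called higher in KO and 4 in Het, and 0 lower in either. Over all genes, 26.5% were called higher in KO and 22.5% in Het. Choroid plexus markers summed to 2.23 to 3.43 CPM in WT, 1.68 to 18.3 CPM in Het and 8.83 to 28.2 CPM in KO, with 2 of 4 tested higher in KO and 1 in Het. Within that sum Ttr, the transthyretin gene, was at 0.723, 1.02 and 0.0430 CPM in WT, 0.164, 7.07 and 15.7 CPM in Het and 23.1, 25.2 and 6.94 CPM in KO. Its log2 fold change was 4.95 in KO (adjusted p = 0.031) and 3.70 in Het (adjusted p = 0.097). Septal, thalamic and erythroid lists had 1 of 3, 2 of 5 and 0 of 3 genes lower in KO and none higher. Midbrain dopamine neuron markers summed to 7.26 to 10.3 CPM in WT, 5.01 to 6.09 CPM in Het and 3.87 to 4.45 CPM in KO. Of these markers, Pitx3 was at 0 in every library and 2 of 4 tested were lower in KO. The lowest log2 fold change among the tested markers was -8.93 in KO and -7.11 in Het. The part of these cell types in the changes of the 9 signalling genes was not tested.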

How the data were processed

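Per the labels' protocols, total RNA of snap-frozen dorsal telencephalon was made into NEBNext Ultra libraries. The deposited tables hold each gene's raw read count, and FPKM values that equal count divided by gene length and library total. HTSeq 0.6.1, DESeq 1.10.1, TopHat2 2.0.9, Bowtie2 2.0.6 and build mm10 are named in the submitters' processing notes. Use of strand and the treatment of multiply matching reads are not given in the sources used here.

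Symbols came from GENCODE M21, which paired 40254 of 41128 genes. Counts were fitted with edgeR 4.0.16 in R 4.3.3: filterByExpr (minimum count 10, minimum total 15), TMM factors, and 1 robust quasi-likelihood model over the 9 libraries, with a term for each genotype and 6 residual degrees of freedom. P-values were adjusted by Benjamini-Hochberg over 15271 genes, which held 99.9% of reads. Adjusted p-values are edgeR's unless another tool is named; fold changes are log2, and CPM values use TMM-scaled library sizes. As alternatives, scaling factors and filters were varied, each library was left out in turn, a 1.5-fold minimum, a replicate block or a fit of 2 genotypes was used, or the tool was DESeq2 1.42.0 or limma 3.58.1 on log2(FPKM + 1) or log2(FPKM + 0.1). Simulated counts for 15271 genes held 67 genes changed 1.5-fold, 67 changed 2-fold and 66 changed 4-fold in KO. Of these, 67.2%, 85.1% and 98.5% were recovered in KO versus WT, with 10 false calls. Far more genes were called in the data than were changed in the simulation, so these rates do not give the power of this fit.

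Members, lists and tests were chosen with earlier results of these data known. Genes named were the 9 members, 15 relatives, the 4 most changed called genes of each pathway list (6 of the striatal list) with mean log2 CPM of at least 1, and the 5 most correlated with Drd1 and with Adora2a. Isl1, Eya1, Six3, Sp9, Pdyn, Cnr1, Creb1, Syt6, Tle4, Ttr and Pitx3 were picked from the lists after their values were seen. Gpr52 and Pde2a were not analysed here. Some genes taken by the rule are not reported here. Figures used Python 3.11.15 and matplotlib 3.10.9.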

Additional observations from a re-analysis of the deposited data

How the results depend on the processing

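When a fold of at least 1.5 was required, 4 of the 9 genes were called lower in KO versus WT and 4 in Het versus WT. In KO versus Het, 0 were lower and 0 higher. This setting raises the size a call needs. Of all 15271 genes tested, it called 965 lower and 729 higher in KO versus WT. It called 588 lower and 340 higher in Het versus WT, and 103 lower and 40 higher in KO versus Het. Without that requirement, 7 to 8 of the 9 genes were lower in KO and 7 to 9 in Het when each library was left out. For KO versus Het, leaving out each library gave 1 to 2 lower and 1 to 2 higher, the second number of each without Het replicate 1, and for higher also without Het replicate 2 or KO replicate 3. The higher count was 3 with no filter on low counts, 2 with DESeq2 and 2 with limma on log2(FPKM + 0.1); the cause was not tested. The receptor ratio for KO versus Het was 0.11 on log2(FPKM + 1), and -0.45 to 0.26 on leaving out each library.

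Signs changed for Adora2a, Drd1 and Adcy5 in KO versus Het and, against WT, for Pde1a and Rgs9bp. Adora2a in KO versus Het, at 0.00, was -0.004 with relative log expression factors, -0.012 with upper-quartile factors, -0.001 with no filter, -0.013 with a filter of 1 CPM in 3 libraries, -0.005 with DESeq2, -0.012 and -0.020 with limma on log2(FPKM + 1) and log2(FPKM + 0.1), -0.011 with only KO and Het, -0.005 with the replicate block and -0.134 to 0.072 on leaving out each library. On leaving out each library, KO versus Het ran from -0.043 (without Het replicate 3) to 0.411 for Drd1 and from -0.136 to 0.021 (without Het replicate 3) for Adcy5. Pde1a ran from -0.124 to 0.070 in KO and from -0.122 to 0.076 in Het, and Rgs9bp from -0.051 to 0.374 in Het, each changing sign without WT replicate 1. With limma on the 2 pseudocounts, Pde1a in Het was 0.002 and 0.003.

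Of 513 alternative values for the 9 genes, 461 kept their direction and side of the threshold, 25 lost a call, 10 gained one and 17 changed sign. Replicate numbers did not pair the samples: same-numbered libraries correlated at -0.11 to 0.08, and 2 of 9 correlated best with their own number. With the replicate block, 7 genes were lower in KO and 8 in Het, and calls were lost for Rgs9 in Het (adjusted p = 0.068), Drd4 in Het (0.065) and Adcy7 in KO (0.066). Over all genes, KO versus Het calls fell from 2556 to 1467 without KO replicate 1 and 1432 without KO replicate 2. At 1 to 19 reads of Gpr6 in a Het or KO library, depth limits its fold change.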
